A study of Rattus norvegicus with 8 samples.

Results

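The 10 genes described here build, coat and mobilise liver triglyceride: Acsl1, Gpam, Lpin1, Dgat2, Cidea, Cideb, Cidec, G0s2, Fabp1 and Fabp4. They were found by symbol in the authors' deposited table of liver genes that differed between diets, which holds 10 of the 10 among its 2462 genes. Livers came from 4 Fischer 344 rats, an inbred wild-type strain, on a choline-deficient amino acid-defined diet (CDAA) that led to hepatocellular carcinoma, and from 4 rats of the same strain on the choline-sufficient counterpart (CSAA). All rats were 1 year old. The labels name liver as the tissue and do not say whether tumour or surrounding tissue was taken. Since a gene entered the table only by passing the authors' tests, that each member passed is a property of how they were found and is no result.

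Fatty acids entering triglyceride are first joined to coenzyme A by acyl-CoA synthetases, then added stepwise to a glycerol backbone, ending with the diacylglycerol acyltransferases. The triglyceride is stored in droplets coated with perilipins and CIDE proteins, or is loaded onto very-low-density lipoprotein (VLDL) for export. Choline is a precursor of phosphatidylcholine, which VLDL needs for its surface, and choline-deficient diets are a classical cause of fatty liver in rats.

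Of the 10 genes, 8 were lower and 2 were higher in CDAA livers in the authors' deposited table. The genes lower in CDAA were enzymes of fatty acid activation (Acsl1) and of the first acylation, the phosphatase step and the last acylation of glycerol (Gpam, Lpin1, Dgat2), the droplet proteins Cideb and Cidec, the lipolysis inhibitor G0s2, and Fabp1, the liver's own fatty acid carrier. Their levels in CDAA were 22.2% to 52.9% of those in CSAA. The pair higher in CDAA, Cidea and Fabp4, were the least abundant of the 10 in CSAA. In pieces of liver, fewer cells of a type and less RNA per cell cannot be told apart. Of all genes in the authors' deposited table, 42.9% were lower and 57.1% were higher in CDAA by DESeq2 and edgeR, and 43% and 57% by Cufflinks. Among those of at least 5 FPKM in either diet group, as all 10 genes were, 62.6% were lower and 37.4% higher. A change of at least 2-fold was reached by 7 of the 8 genes lower in CDAA and by both of the others, against 58% of the 1055 listed genes that were lower and 87.8% of the 1407 that were higher. FPKM divide the sequenced fragments by transcript length and by library size, so that levels can be set side by side between genes. They are the authors' single value for each diet group; values of single rats are not analysed here, so overlap between rats of the diets cannot be stated, and the error given is the standard error (SE) of the authors' DESeq2 model.

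The authors' adjusted p-values also show over how many genes they were adjusted. These are called the tested genes here, and any gene left out of the adjustment is not counted among them. The ratios of adjusted to raw p give 16076 genes for DESeq2 and 15041 for edgeR, and at least 3993 (24.8%) and 4013 (26.7%) of them reached the level of the last gene in the table. The 2462 genes in the table are 15.3% of those that DESeq2 tested. A typical normalised library held about 14100000 counted reads.

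**Figure D1:**
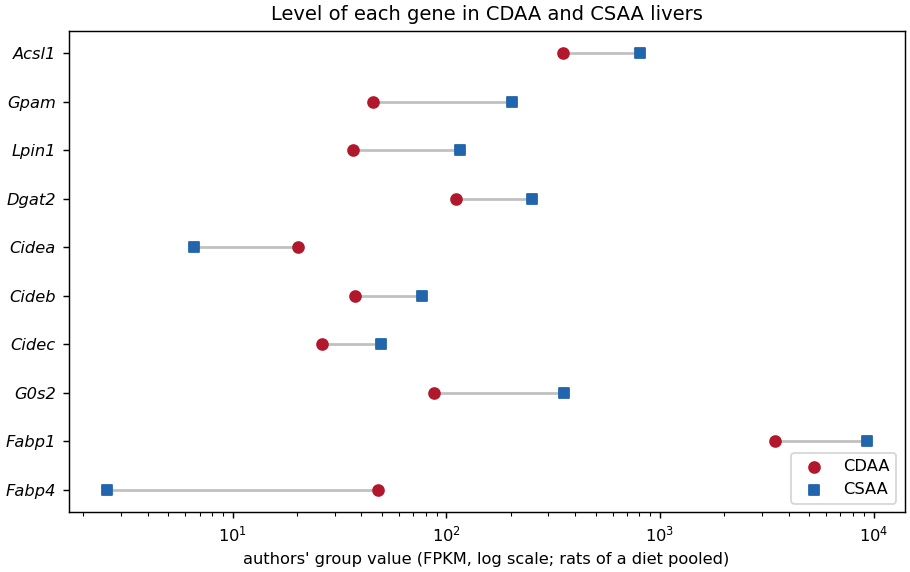
Authors' group values in FPKM on a log scale, with CDAA as red circles and CSAA as blue squares; a line joins the values of a gene, and rats of a diet are pooled into 1 value. Cidea and Fabp4 are the genes with the CDAA value to the right of the CSAA value.

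Acsl1 encodes the main long-chain acyl-CoA synthetase of liver, which activates fatty acids for both triglyceride synthesis and oxidation. It was at 350 FPKM in CDAA and 809 FPKM in CSAA in the authors' deposited table (ENSRNOG00000010633; chromosome 16, 48937455 to 49003246, build rn6). Its log2 fold change, CDAA over CSAA, was -1.19 ± 0.21 (SE), with a DESeq2 adjusted p of 4.24e-07 in the authors' deposited table. Acsl1 was the second most abundant of the 10 genes on both diets.

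Gpam, the mitochondrial glycerol-3-phosphate acyltransferase that starts glycerolipid synthesis, had the largest fall by value of the 8. The authors' deposited table gives it 45.2 FPKM in CDAA and 203 FPKM in CSAA (ENSRNOG00000015124; chromosome 1, 275846818 to 275906686, rn6). The log2 fold change was -2.03 ± 0.38 (SE; adjusted p = 1.21e-06, DESeq2) in the authors' deposited table, with a 95% interval (1.96 SE on either side) of -2.78 to -1.28.

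Lpin1, a phosphatidate phosphatase that makes diacylglycerol and also acts as a transcriptional coactivator, was at 36.4 FPKM in CDAA and 116 FPKM in CSAA in the authors' deposited table (ENSRNOG00000004377; chromosome 6, 41799748 to 41870046, rn6). Its log2 fold change of -1.37 ± 0.43 (SE; DESeq2) had the widest interval of the 10, from -2.23 to -0.52. Of the 10 it came closest to leaving the authors' deposited table, with an adjusted p of 0.00677 by DESeq2 and a false discovery rate of 0.00966 by edgeR, where the highest values of the table are 0.00986 and 0.009999. Dgat2, which adds the last fatty acid to diacylglycerol, was at 111 FPKM in CDAA and 252 FPKM in CSAA in the authors' deposited table (ENSRNOG00000016573; chromosome 1, 164113458 to 164143818, rn6). It fell by 1.14 ± 0.27 on the log2 scale (SE; adjusted p = 0.000118, DESeq2) in the authors' deposited table.

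**Figure D2:**
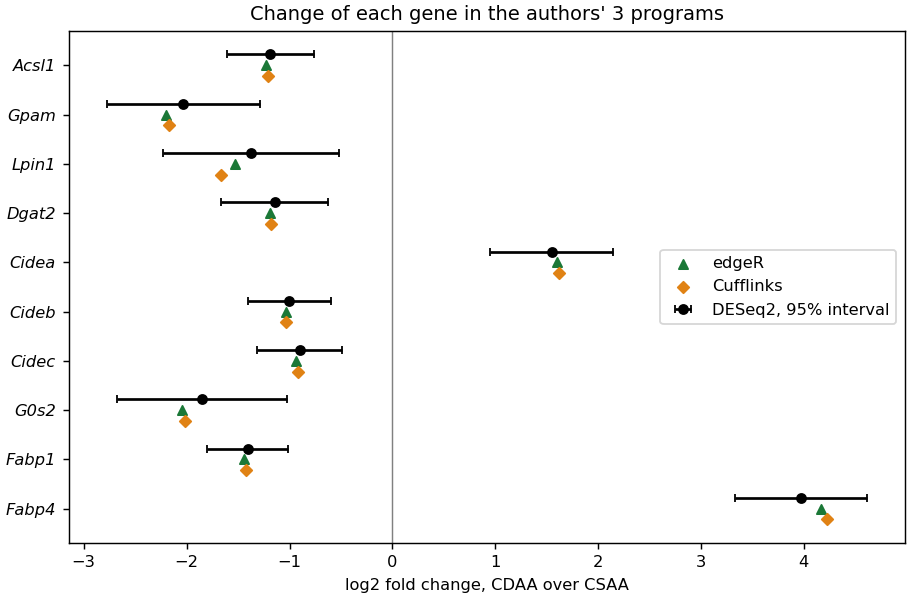
Log2 fold change of each gene, CDAA over CSAA, by the authors' DESeq2 (black circles with 95% intervals), edgeR (green triangles) and Cufflinks (orange diamonds). The 3 programs place each gene on the same side of 0, and the widest intervals are those of Lpin1, G0s2 and Gpam.

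The CIDE genes moved apart. CIDE proteins sit where droplets touch: Cidec (also called Fsp27) promotes droplet fusion, Cidea does so in brown fat and in fatty liver of mice, and Cideb in hepatocytes takes part in lipid loading of VLDL. Cidea was at 20.3 FPKM in CDAA and 6.60 FPKM in CSAA in the authors' deposited table, a log2 fold change of 1.55 ± 0.31 (SE; adjusted p = 4.71e-06, DESeq2; ENSRNOG00000018505; chromosome 18, 63098143 to 63108051, rn6). Cideb was at 37.5 FPKM in CDAA and 77.1 FPKM in CSAA in the authors' deposited table, or -1.001 ± 0.20 (SE; adjusted p = 9.61e-06, DESeq2; ENSRNOG00000020377; chromosome 15, 34439875 to 34444244, rn6). Cidec stood at 26.2 FPKM in CDAA and 49.5 FPKM in CSAA in the authors' deposited table, or -0.90 ± 0.21 (SE; adjusted p = 0.000133, DESeq2; ENSRNOG00000009153; chromosome 4, 145377430 to 145390497, rn6). The interval of Cidea was 0.95 to 2.15, that of Cideb -1.40 to -0.60 and that of Cidec -1.32 to -0.49. That none of them holds 0 follows from how the table was made. Every listed gene has a DESeq2 adjusted p of at most 0.00986, so no interval of a listed gene could hold 0.

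With these values the make-up of the family differed between diets. The summed level of the 3 CIDE genes was 84.0 FPKM in CDAA and 133 FPKM in CSAA in the authors' deposited table. Cidea made up 24.2% of that sum in CDAA and 4.96% in CSAA, Cideb 44.7% in CDAA and 57.9% in CSAA, and Cidec 31.2% in CDAA and 37.2% in CSAA. Cidea stayed the least abundant of the 3 on both diets. Its value rests on a mean normalised count of 76.1 over the rats in the authors' deposited table, the lowest count of the 10 genes, against 1094 for Cideb and 890 for Cidec. By count Cidea thus lies further below Cideb and Cidec than by FPKM. The shares are of FPKM and rest on the transcript lengths that Cufflinks used, which were not examined.

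RefSeq sequences before the start sites of the CIDE genes (assembly GRCr8) are shown because paralogs of 1 family went in opposite directions and the series is titled for epigenetic changes; methylation was not analysed here. Each run gives the 120 bases before the annotated start, 5′ to 3′ on the gene's strand, and capitals mark CG dinucleotides, the sites at which mammalian DNA is methylated.
Cidea (chr18:63164697-63164816, plus strand): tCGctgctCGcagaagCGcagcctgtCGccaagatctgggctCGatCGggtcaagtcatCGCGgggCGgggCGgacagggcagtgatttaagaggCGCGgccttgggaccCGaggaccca
Cideb (chr15:33226408-33226527, minus strand): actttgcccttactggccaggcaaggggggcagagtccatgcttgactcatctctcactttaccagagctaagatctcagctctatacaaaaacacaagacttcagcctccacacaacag
Cidec (chr4:148137116-148137235, minus strand): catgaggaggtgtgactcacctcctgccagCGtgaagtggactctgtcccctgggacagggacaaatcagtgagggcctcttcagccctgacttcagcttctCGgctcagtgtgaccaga
These runs hold 13 CG dinucleotides for Cidea, 0 for Cideb and 2 for Cidec. In the full window of 300 bases, 250 before and 50 after the start, the counts were 23, 6 and 4, against a median of 7 over 33469 RefSeq promoters, and 80.5% of those promoters had fewer than Cidea. Among the 8 members with a RefSeq promoter the other counts were 15 for G0s2, 6 for Gpam, 4 for Acsl1, 3 for Fabp1 and 1 for Lpin1. The sequence is that of a reference rat and not of the Fischer 344 animals, with 1 start per gene.

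G0s2 encodes a small protein that binds and inhibits the triglyceride lipase ATGL (gene Pnpla2), so it slows the release of fatty acids from droplets. It was at 87.8 FPKM in CDAA and 356 FPKM in CSAA in the authors' deposited table, 24.7% of the CSAA level (ENSRNOG00000006019; chromosome 13, 112004139 to 112005052, rn6). The log2 fold change was -1.85 ± 0.42 (SE; adjusted p = 8.96e-05, DESeq2) in the authors' deposited table, with an interval of -2.68 to -1.02. By level G0s2 ranked 4 of the 10 in CDAA and 3 in CSAA, having changed places with Dgat2. Pnpla2 itself and its activator Abhd5 are not in the authors' deposited table, which does not show that they were unchanged.

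Fabp1 and Fabp4 encode small carriers of fatty acids in the cytosol. Fabp1 is the form of hepatocytes and gut, and Fabp4 that of adipocytes, macrophages and capillary endothelium. Fabp1 was at 3458 FPKM in CDAA and 9276 FPKM in CSAA in the authors' deposited table (ENSRNOG00000006675; chromosome 4, 99063180 to 99066954, rn6), and on both diets it ranked 2 by FPKM among all 2462 genes of the table. It fell by 1.41 ± 0.20 on the log2 scale (SE; adjusted p = 8.06e-11, DESeq2) in the authors' deposited table. Fabp4 was at 48.0 FPKM in CDAA and 2.57 FPKM in CSAA in the authors' deposited table (ENSRNOG00000010805; chromosome 2, 93792600 to 93797305, rn6). Its log2 fold change of 3.97 ± 0.33 (SE; adjusted p = 1.79e-31, DESeq2) corresponds to 15.6-fold, with an interval of 10.03-fold to 24.4-fold, in the authors' deposited table. By level Fabp4 ranked 5 of the 10 in CDAA, above Gpam, and 10 in CSAA. Even so it was 1.37% of the summed Fabp1 and Fabp4 level in CDAA and 0.0277% in CSAA.

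Markers of the cell types in which Fabp4 is usually found are given beside it. Of 10 macrophage markers 7 were listed and all 7 were higher in CDAA, where 15.3% of all tested genes were listed and 57.1% of the listed genes were higher. They had a summed level of 196 FPKM in CDAA and 30.6 FPKM in CSAA in the authors' deposited table. Most of that sum was Lgals3 (80.1 FPKM in CDAA, 13.5 FPKM in CSAA) and Gpnmb (58.4 FPKM in CDAA, 6.95 FPKM in CSAA). Cd68 was at 14.2 FPKM in CDAA and 4.45 FPKM in CSAA, and Adgre1 at 7.55 FPKM in CDAA and 3.54 FPKM in CSAA. The general macrophage markers Adgre1 (1.06 ± 0.18, SE) and Cd68 (1.61 ± 0.20) had the smallest log2 fold changes of the 7 and Mmp12 (4.80 ± 0.42) the largest, with Lgals3, Gpnmb, Cd9 and Trem2 between them, in the authors' deposited table. Cd163, Marco and Csf1r are not listed. Of 8 endothelial markers 3 were listed: Cd34 and Vwf were higher and Kdr was lower, with a sum of 23.0 FPKM in CDAA and 27.6 FPKM in CSAA in the authors' deposited table. Of 7 adipocyte markers 1 was listed, Car3, which is also abundant in rat liver, and it was lower at 416 FPKM in CDAA and 1155 FPKM in CSAA in the authors' deposited table. Adipoq, Lep, Cfd, Retn, Plin1 and Lipe are not listed. The part of these cell types in the change of Fabp4 was not tested.

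The 120 bases before the start of Fabp1 are shown because Fabp1 in rodents is a known target of PPAR-alpha, a nuclear receptor that binds repeats of the hexamer AGGTCA. The run is from RefSeq (GRCr8, chr4:104749220-104749339, plus strand), 5′ to 3′, and capitals mark the hexamer, which lies on the other strand and so reads as its reverse complement.
Fabp1: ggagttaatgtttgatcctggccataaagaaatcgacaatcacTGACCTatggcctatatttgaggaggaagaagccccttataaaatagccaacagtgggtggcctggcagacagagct
The hexamer was found in 2 of the 8 member promoters, at 77 bases before the start in Fabp1 and 24 bases after it in G0s2, and in 16.2% of all RefSeq promoters. Its direct repeat spaced by 1 base (DR1, which holds 2 hexamers), the motif TCACNCCAC of the SREBP type and the E-box CACGTG were searched on both strands in exact letters. They were in 0 of the 8 promoters, and in 0.0538%, 1.12% and 6.42% of all promoters. At such shares, 0 of 8 says little. An exact search also misses repeats with a changed letter. In the Fabp1 run the marked letters are followed, after 1 base, by tggcct, which differs from TGACCT in 1 letter. Such matches describe letters in the window and show nothing about binding.

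Markers of other liver cell types were read in the same way. Of 8 hepatocyte markers 2 were listed, Ttr and Hnf4a, and both were lower. So were 42.9% of listed genes, and 62.6% of those that, like Ttr and Hnf4a, had at least 5 FPKM in either group. The sum of the 2 markers was 6466 FPKM in CDAA and 13622 FPKM in CSAA in the authors' deposited table. Ttr alone was at 6364 FPKM in CDAA and 13443 FPKM in CSAA. All 4 listed bile duct markers of 5 and all 4 listed stellate cell markers of 5 were higher, against the same 15.3% of tested genes listed and 57.1% of listed genes higher, with sums of 51.5 FPKM in CDAA and 9.14 FPKM in CSAA for bile duct and of 30.9 FPKM in CDAA and 9.06 FPKM in CSAA for stellate cells in the authors' deposited table. Alb, Apoa1, Serpina1, Cps1, Cyp2e1 and Tat of the hepatocyte list are not listed. The part of these cell types in the changes of the 10 genes was not tested.

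Differences in change among the 8 genes lower in CDAA were not tested. Every one of their 95% intervals holds the log2 fold changes between -1.32 and -1.28, which does not show that the changes were alike. Their median log2 fold change was -1.28, against -1.08 over all 1055 genes lower in CDAA in the authors' deposited table. By size of change, Gpam ranked 122 and G0s2 143 of those 1055, and Cidec ranked 747. Fabp4 ranked 56 of the 1407 genes higher in CDAA, and Cidea 763. Ranked by DESeq2 p over the 16076 tested genes, Fabp4 stood at 66, Fabp1 at 644 and Lpin1 at 3759.

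**Figure D3:**
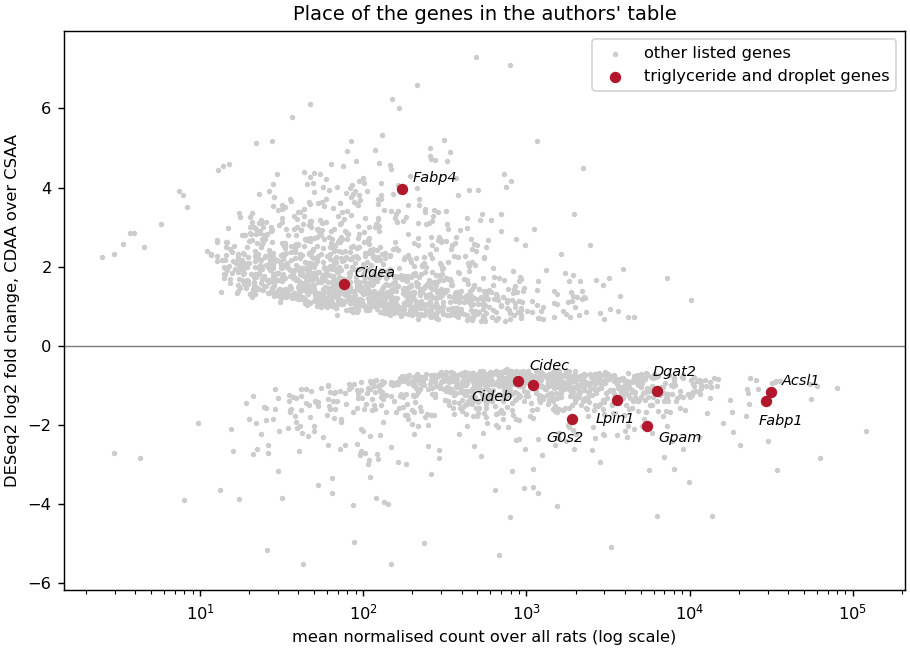
DESeq2 log2 fold change, CDAA over CSAA, against the mean normalised count (log scale) for the 2462 genes of the authors' table in grey and the 10 genes in red. The 8 genes below 0 have mean counts from 890 upward, and Cidea and Fabp4 lie to the left of them.

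The genes differed in how exactly their change was measured. Lpin1, G0s2 and Gpam had large errors for their abundance: of the listed genes within a factor of 2 in mean normalised count, 98.6% (of 288) had a smaller SE than Lpin1, 97.3% (of 373) than G0s2 and 95.1% (of 203) than Gpam. For the other 7 genes these shares lay between 47.8% (Fabp1) and 80.1% (Fabp4). The median SE of the genes near Lpin1 in count was 0.20, against 0.43 for Lpin1. At such counts the SE of this model is set mostly by the spread between rats of a diet. Which rats carry that spread is not analysed here.

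**Figure D4:**
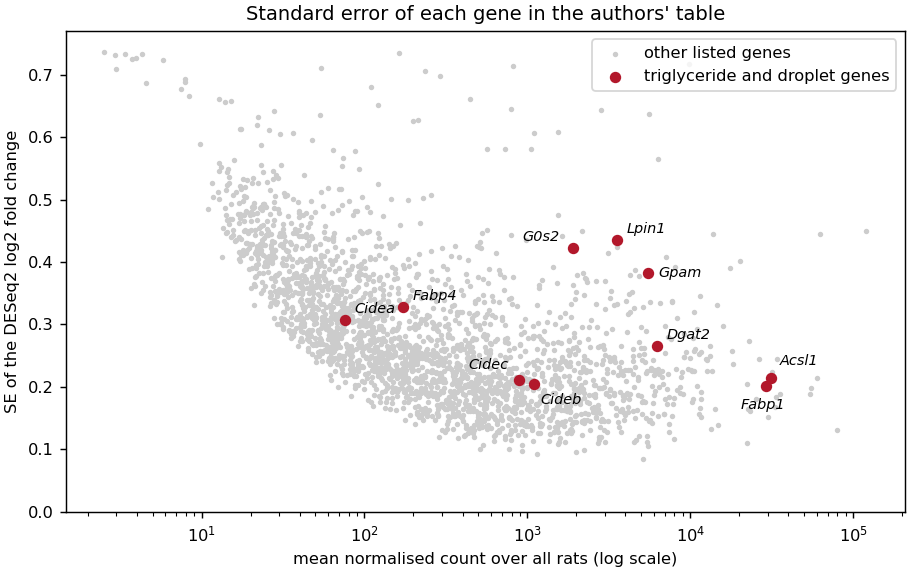
Standard error of the DESeq2 log2 fold change against the mean normalised count (log scale) for the 2462 genes of the authors' table in grey and the 10 genes in red. Lpin1, G0s2 and Gpam lie above most genes of like count, at 0.43, 0.42 and 0.38.

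Other genes of the pathway came from 8 lists drawn up by function, 85 genes in all. Of the 75 that are not among the 10, 19 (25.3%) are in the authors' deposited table, with 16 lower and 3 higher in CDAA and a median log2 fold change of -0.90. Over all genes that DESeq2 tested the listed share was 15.3%, and 42.9% of the listed genes were lower. Since the lists were written with earlier results known, nothing is read from these differences. Within triglyceride assembly, 3 of the 13 further genes were listed: the acyltransferases Gpat4 (-0.88 ± 0.22, SE) and Agpat2 (-0.75 ± 0.20) were lower and Gpat3 was higher (2.69 ± 0.43) in the authors' deposited table. Gpat3 was at 2.43 FPKM in CDAA and 0.294 FPKM in CSAA in the authors' deposited table. Dgat1, the other enzyme of the last step, is not listed there.

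For uptake and activation 4 of 11 further genes were listed, with 2 lower and 2 higher. Acsl5 (-1.66 ± 0.20) and Slc27a5 (-2.62 ± 0.28), which mainly activates bile acids, fell, while Acsl3 (1.14 ± 0.26) and Slc27a3 (1.52 ± 0.36) rose in the authors' deposited table (SE). The 4 of 10 further droplet genes that were listed all fell: the seipin gene Bscl2 (-1.09 ± 0.31), which shapes budding droplets, the droplet enzymes Hsd17b13 (-0.90 ± 0.24) and Hsd17b11 (-0.69 ± 0.17), and Fitm2 (-0.65 ± 0.21) in the authors' deposited table. Of all listed genes 42.9% were lower, and 62.6% of those of at least 5 FPKM in either group. None of the perilipins Plin1 to Plin5 is listed. In the lipolysis list 1 of 7 further genes was found, Pnpla3, at -3.45 ± 0.72 (SE) with 5.10 FPKM in CDAA and 387 FPKM in CSAA in the authors' deposited table, where edgeR gave -6.26. Of the 7 further fatty acid-binding proteins and of the 3 genes for VLDL loading, 0 were listed.

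Of the genes DESeq2 tested 15.3% were listed. Of the listed genes 42.9% were lower, and 62.6% of those of at least 5 FPKM in either group. Among 11 regulators of lipid synthesis 6 were listed and all 6 were lower in CDAA. They were Insig1 (-1.60 ± 0.48, SE) and Insig2 (-1.28 ± 0.26), which hold back SREBP processing, the carbohydrate sensor Mlxipl (-1.05 ± 0.13), the coactivator Ppargc1b (-0.90 ± 0.29), Srebf1 (-0.80 ± 0.22), which drives lipogenic genes, and the liver X receptor Nr1h3 (-0.65 ± 0.15) in the authors' deposited table. Ppara and Pparg are not listed there. The fatty acid oxidation list gave 1 of 13, Pdk4 (-1.86 ± 0.38, SE, in the authors' deposited table), which restrains glucose oxidation and is not itself an oxidation enzyme.

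**Figure D5:**
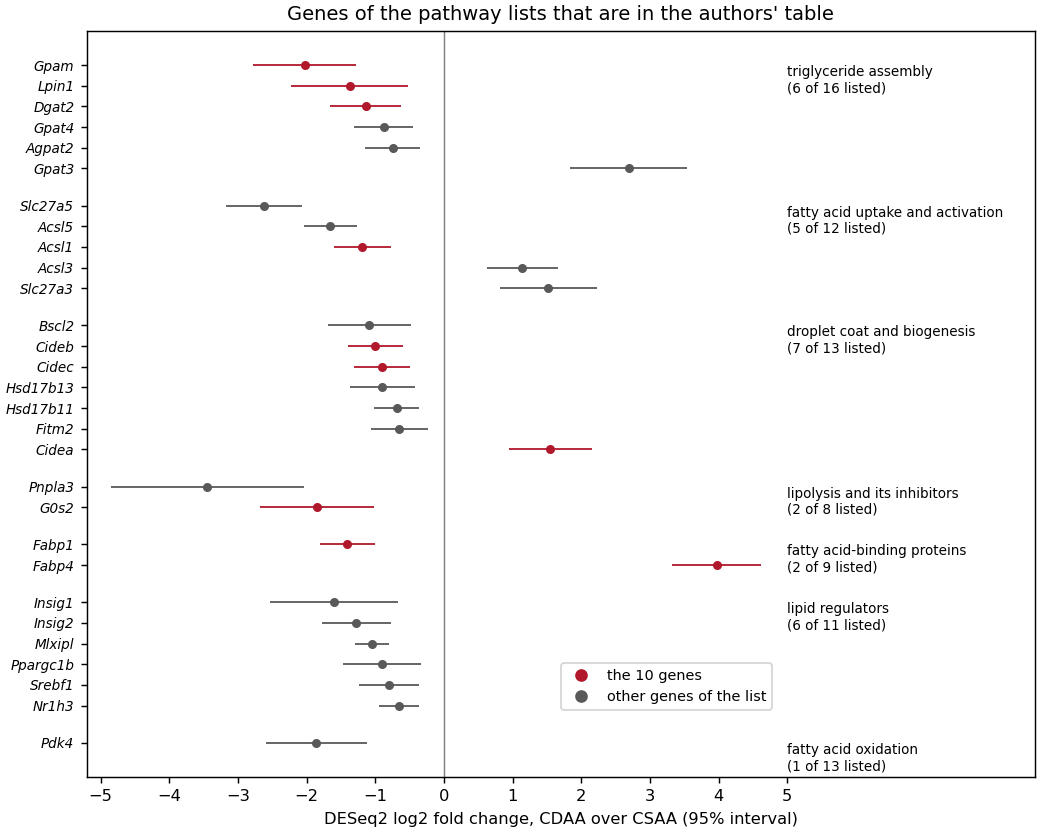
DESeq2 log2 fold changes with 95% intervals for the genes of 7 pathway lists found in the authors' table, the 10 genes in red and others in grey; the VLDL list had 0 genes there. The 5 genes to the right of 0 are Gpat3, Acsl3, Slc27a3, Cidea and Fabp4.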

How the data were processed

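RNA of liver from 4 CDAA and 4 CSAA rats was extracted with Trizol and made into libraries with an Illumina TruSeq RNA kit, per the labels' protocols. The submitters' processing notes name FastQC, TopHat2, Cufflinks, DESeq2, edgeR and build rn6; no source used here gives versions, the read counter or the strand setting.

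Per the file headers, the authors deposited 1 table of their own comparison: DESeq2 mean normalised counts (a signal), log2 fold changes with SE, a Wald score and p-values, edgeR log2 fold changes, mean log2 CPM and p-values, and a Cufflinks value per diet group with its log2 ratio, test score and q-values. The group values are taken as FPKM deposited by the authors, the unit Cufflinks writes, which the header does not name, and are given to the diets by the table's own sample columns. The Cufflinks log2 ratio has the sign of CDAA over CSAA and its deposited test score the opposite sign, for 2440 genes each; no source used here says why, and the score was not used. The directions of the FPKM and of the authors' DESeq2 columns were the same for 2457 of 2462 genes. In the deposited table the rats of a diet are pooled, so no test across rats was run; the p-values are the authors', and separate animals are assumed from the labels' rat numbers. The smallest Cufflinks q (0.000381) is shared by 1656 genes, all 10 members included, and does not rank them. Whole-locus Cufflinks values and reads of genes overlapping Cideb (Nop9), Gpam and Dgat2 (unnamed loci), seen in RefSeq GRCr8, limit the values.

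Computed here were 95% intervals (1.96 SE), shares, ranks, the number of genes tested (adjusted p times rank over p, with ranks whole within 0.01 for 93.4% of genes in the authors' DESeq2 and 91.6% in the authors' edgeR columns; of 40 simulated sets, 31 had over 90% whole ranks and all 31 gave the right size) and promoter letter searches. The members and lists were chosen with earlier results of these data known. All members, and each listed gene of a list, could be named. List symbols were matched directly or by older names in RefSeq. Protein comparisons were not made. Scripts ran in Python 3.11.15 with numpy 2.4.6, pandas 2.3.3 and scipy 1.17.1; plots used matplotlib 3.10.9.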

Additional observations from a re-analysis of the deposited data

How the results depend on the processing

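The counts of 8 genes lower and 2 higher in CDAA were the same with the authors' edgeR and Cufflinks columns and with a minimum of 5 FPKM in either group. With at least a 2-fold change by DESeq2, 7 lower and 2 higher genes were left, Cidec falling out, against 58% of the listed genes lower in CDAA and 87.8% of those higher. All 10 genes kept their direction in both other programs and on the log2 scale of FPKM plus 1. The programs used the same rats, and a gene was listed only if it passed the tests of all 3. Of all 2462 listed genes, 2457 had the same direction by DESeq2 and by FPKM. The kept directions are therefore no separate support. The edgeR change was larger in size than that of DESeq2 for 10 of 10, by 0.03 to 0.20, and Cufflinks differed from DESeq2 by 0.02 to 0.29, the most for Lpin1. For each of the 10 genes the DESeq2 change, which is the main value given here, was the smallest in size of the 3 programs. The DESeq2 intervals do not cover differences between programs. For Pnpla3 of the pathway lists DESeq2 gave -3.45 ± 0.72 (SE), edgeR -6.26 and Cufflinks -6.24. Which program came nearer to the true change was not tested. Of the pathway list genes, 24 were lower and 5 higher; at least a 2-fold change left 15 lower, and the minimum of 5 FPKM left 3 higher. No paired analysis was possible because the authors' table holds no values of single rats; leaving out a rat, other size factors and other count filters were not run for the same reason. Selection by 3 tests tends to overstate small changes, and depth limits Cidea the most.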

Other observations

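In 2 further enzyme families, read after their values were seen, a scarce form was higher in CDAA while the abundant forms were lower, as for the CIDE and fatty acid-binding genes. Gpat3, an acyltransferase of the endoplasmic reticulum, made up 3.72% of the summed level of Gpam, Gpat3 and Gpat4 in CDAA and 0.124% in CSAA, while that sum was 65.3 FPKM in CDAA and 236 FPKM in CSAA in the authors' deposited table. Acsl3, the acyl-CoA synthetase found on nascent droplets, made up 2.72% of the summed level of Acsl1, Acsl3 and Acsl5 in CDAA and 0.491% in CSAA, with sums of 453 FPKM in CDAA and 1105 FPKM in CSAA in the authors' deposited table. Forms of these families that are not listed are left out of the sums. In the table as a whole the genes higher in CDAA were also the scarcer ones, with a median of 3.91 FPKM in CDAA and 1.02 FPKM in CSAA in the authors' deposited table.

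Large errors for their abundance were also recorded for Pnpla3, Insig1 and Pdk4 of the pathway lists and for the macrophage marker Mmp12, with 100%, 98.6%, 95.4% and 96.9% of genes near them in count having a smaller SE in the authors' deposited table; these were picked out after their values were seen.

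Of 8 genes listed within 100 kb of a member, 6 were higher and 2 were lower in CDAA. Of all listed genes 57.1% were higher and 42.9% were lower. Beside Cidea, the tubulin gene Tubb6 rose by 3.40 ± 0.27 on the log2 scale (SE) in the authors' deposited table. Rpusd3, at 6438 bases from Cidec, was lower (-0.98 ± 0.24, SE), while Il17re (2.17 ± 0.43) and Fancd2 (1.39 ± 0.32) on the same stretch were higher in the authors' deposited table. Near Cideb, Nfatc4 (0.986 FPKM in CDAA and 0.306 FPKM in CSAA) and Ripk3 (2.85 FPKM in CDAA and 1.23 FPKM in CSAA) were higher in the authors' deposited table. Near G0s2, Hsd11b1, which regenerates active glucocorticoid, was at 140.0 FPKM in CDAA and 454 FPKM in CSAA, a log2 fold change of -1.66 ± 0.23 (SE), and Lamb3, a laminin gene, was higher (1.95 ± 0.30), in the authors' deposited table.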
